A study of Arabidopsis thaliana with 12 samples.

Results

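The response of leaves to heat under high light was measured in Arabidopsis thaliana, the thale cress, by setting plants given both stresses against plants given high light alone. The members are the 3 libraries of high light and heat and the 3 libraries of high light, 6 of the 12 libraries of the study, and the 19309 genes, of 32833 loci listed, whose normalised count averaged at least 10 over all libraries. All plants were wild type of the accession Col-0 and 30 days old, grown at 23 °C with 12 h of light a day at 50 µmol m-2 s-1, and leaves were sampled. The combination group had 600 µmol m-2 s-1 and 42 °C together for 7 h, and the high light group had 600 µmol m-2 s-1 at 23 °C for 7 h. Heat alone (42 °C at growth light for 7 h) and untreated control plants, 3 libraries each, gave the same step of heat at growth light, from libraries that the first step does not use. Whether the 3 libraries of a group are separate plants is not stated in the labels, so the p-values rest on library spread alone, some or all of which may be technical.

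Plants meet heat with heat shock factors, transcription factors that switch on chaperones, the proteins that keep other proteins folded or pull aggregates apart. Small heat shock proteins hold unfolding proteins, HSP70 and HSP90 refold them, and HSP101 dissolves aggregates together with them. High light strains the leaf in another way: more energy reaches the photosystems than carbon fixation can use, reactive oxygen is formed, and leaves commonly lower antenna transcripts and raise early light-induced proteins and anthocyanin pigments. Heat on top of high light therefore meets a leaf that is already changed, and the question here is what the heat adds to it.

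Reads recovered per library numbered 29814116 to 32892194 in the combination and 33626361 to 36768410 in high light. The deposited values are reads divided by 1 size factor per library, at 0.5353 to 0.6048 in the combination and 1.129 to 1.308 in high light. Reads were concentrated in few genes in the combination, where the 100 most abundant genes took 40.4%, 48.4% and 44.5% of reads, against 20.6%, 21.4% and 21.8% in high light. With library totals in place of the deposited size factors the median change of all genes moved by -0.89 on the log2 scale, with upper-quartile scaling by -0.17 and with TMM by -0.07, so small changes depend on the scaling and the share of reads is given beside the main groups. The leaf mesophyll genes RBCS1A, RBCS2B, LHCB1.2, RCA and CAT2 summed to between 1357000 and 1455000 normalised counts in the combination and between 653900 and 873600 in high light. This gap rests on the size factors, which were lower in every combination library, so it is not a measure of more mesophyll. Flower markers summed to 29.8 to 40.2 in the combination and 9.74 to 22.2 in high light, near the limit of detection. In whole leaves, fewer cells of a type and less RNA per cell cannot be told apart.

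The stretch before the gene start is shown for 5 genes on which the results turn: the chaperone HSP101, the factor HSFA2, the peroxidase APX2, the gene with the largest rise, HSP21, and the gene with the largest fall, UF3GT. Each run holds the 250 bases before the annotated start, read from RefSeq's TAIR10.1 genome and written 5′ to 3′ on the strand of the gene. Capitals mark matches, on either strand, to 3 motifs: the heat shock element (GAANNTTC, then any 2 bases, then GAA), the dehydration-responsive element ACCGAC and the G-box CACGTG. No match overlaps another.
HSP101, chr1:27940370-27940619, minus strand: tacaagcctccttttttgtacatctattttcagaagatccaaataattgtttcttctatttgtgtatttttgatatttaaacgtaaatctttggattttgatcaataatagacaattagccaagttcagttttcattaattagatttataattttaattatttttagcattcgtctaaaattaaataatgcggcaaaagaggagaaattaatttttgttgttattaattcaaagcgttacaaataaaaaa
HSFA2, chr2:11135374-11135623, plus strand: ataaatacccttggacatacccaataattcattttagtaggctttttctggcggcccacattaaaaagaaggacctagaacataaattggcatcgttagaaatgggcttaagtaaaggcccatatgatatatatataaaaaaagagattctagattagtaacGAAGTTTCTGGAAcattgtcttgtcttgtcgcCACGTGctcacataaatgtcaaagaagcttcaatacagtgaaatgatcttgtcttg
APX2, chr3:2955906-2956155, plus strand: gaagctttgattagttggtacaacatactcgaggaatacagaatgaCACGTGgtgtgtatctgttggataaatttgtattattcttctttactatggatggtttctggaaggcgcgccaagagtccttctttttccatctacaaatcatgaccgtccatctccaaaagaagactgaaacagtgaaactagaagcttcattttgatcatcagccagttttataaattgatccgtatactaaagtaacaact
HSP21, chr4:13819972-13820221, minus strand: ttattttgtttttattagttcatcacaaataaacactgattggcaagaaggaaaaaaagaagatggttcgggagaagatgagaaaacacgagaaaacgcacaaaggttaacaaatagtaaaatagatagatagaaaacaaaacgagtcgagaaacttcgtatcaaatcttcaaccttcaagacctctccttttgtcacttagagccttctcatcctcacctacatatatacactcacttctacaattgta
UF3GT, chr5:21938397-21938646, minus strand: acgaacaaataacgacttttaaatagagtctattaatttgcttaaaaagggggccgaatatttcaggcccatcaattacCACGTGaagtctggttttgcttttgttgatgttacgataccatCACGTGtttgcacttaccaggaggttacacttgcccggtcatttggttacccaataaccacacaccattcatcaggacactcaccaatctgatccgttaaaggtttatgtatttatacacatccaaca

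HSFA2 holds 1 heat shock element, starting 88 bases before the gene start, and 1 G-box. APX2 holds 1 G-box, UF3GT holds 2, and HSP101 and HSP21 hold none of the 3 in this window. The heat shock element, as spelled here, is in 0.386% of the promoters of 27443 nuclear protein-coding genes, in 2 of 16 small heat shock protein genes and in 4 of 25 listed heat shock factors and regulators. It is in 0 of 33 genes of large heat shock proteins and co-chaperones and in 0 of 21 genes of endoplasmic reticulum folding. The G-box is in 6.49% of those promoters, in 5 of 18 flavonoid enzyme genes, in 6 of 24 photosystem subunit genes and in 4 of 21 antenna genes. It is also in 7 of 19 clock genes and in 7 of 21 genes of endoplasmic reticulum folding. Other lists have fewer, with 1 of 16 small heat shock protein genes, 0 of 13 aquaporins, 0 of 9 expansins and 0 of 17 DNA replication and cell division genes. Of the promoters of genes tested, 7.54% hold a G-box. The dehydration-responsive element is in 4.7% of the promoters of nuclear protein-coding genes and in none of the runs shown. A match describes letters in a window and is not a measured site.

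Heat added to high light raised heat shock proteins, antenna and photosystem genes and plasma membrane aquaporins and lowered flavonoid genes, while with the same heat at growth light no antenna gene or photosystem subunit gene passed as higher by limma. Of 19309 genes, 5421 were higher (28.1%) and 5654 lower (29.3%) in the combination than in high light (limma, Benjamini-Hochberg adjusted p under 0.05), and 8234 did not pass. The counts given per group below are to be read beside these shares, and a count near them does not set a group apart. With library totals as the scaling 1964 were higher and 11758 lower, so that higher genes made up 14.3% of the changed genes and not 48.9%. Changes of at least 3 on the log2 scale were passed by 719 genes upward and 424 downward. Changes are differences of log2(normalised count + 1), a scale that shrinks the change of genes with few reads.

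At growth light, heat raised 4745 genes (24.6%) and lowered 4783 (24.8%). Genes higher at both light levels numbered 2076, which is 38.3% of the genes raised at high light and 43.8% of those raised at growth light. Genes lower at both numbered 1785, which is 31.6% and 37.3% of the same lists of lowered genes. Of the 5421 genes that heat raised at high light, 868 were lowered by heat at growth light. Of the 5654 genes that it lowered at high light, 936 were raised at growth light. Both were smaller shares of those genes than the 24.8% lowered and 24.6% raised at growth light among all genes tested. The difference between the 2 heat changes, tested as an interaction, was positive for 4443 genes (23.0%) and negative for 4484 (23.2%). Across genes, which are not independent replicates, the 2 changes correlated at Pearson's r = 0.413 as a description.

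**Figure D1:**
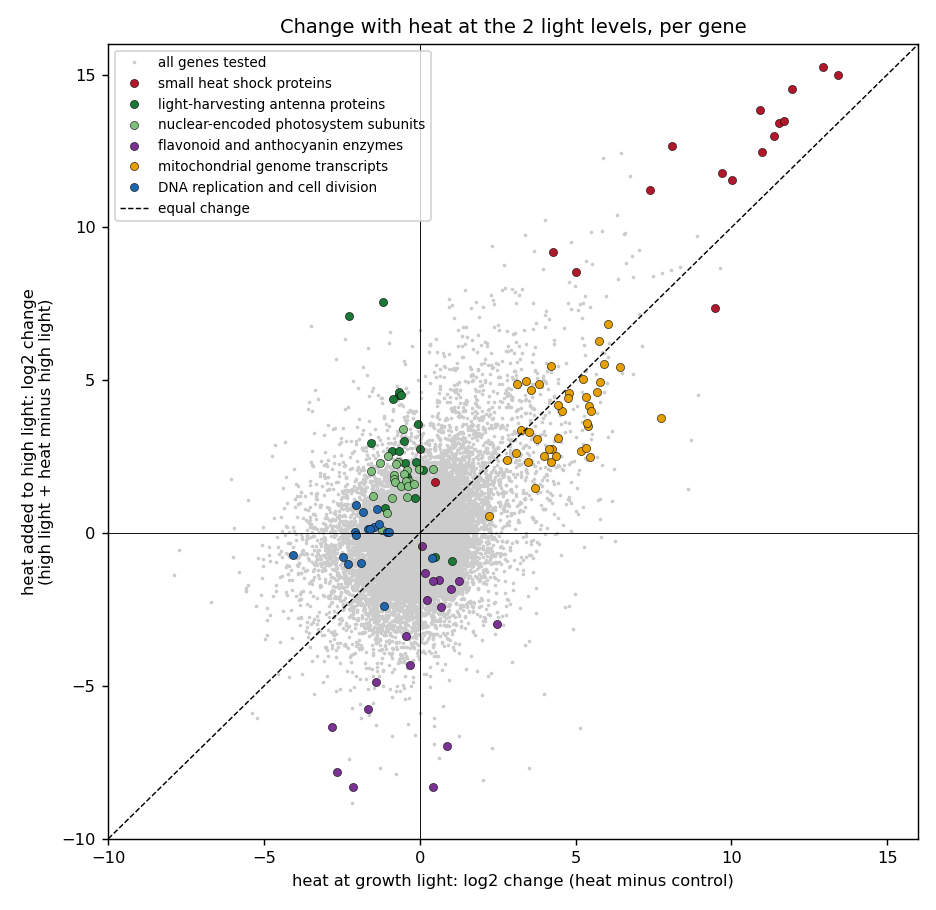
Change of each of 19309 genes with heat at growth light (horizontal axis, heat minus control, log2) and with heat added to high light (vertical axis, combination minus high light, log2), with 6 gene groups coloured and a dashed line of equal change. Small heat shock protein genes and mitochondrial transcripts lie above 0 on both axes, most antenna and photosystem genes lie above 0 on the vertical axis and mostly at or below 0 on the horizontal one, and flavonoid enzyme genes lie below 0 on the vertical axis.

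All 16 small heat shock protein genes rose when heat was added to high light, with a median change of 12.57 on the log2 scale against -0.03 over all genes tested. These small chaperones bind unfolding proteins in the cytosol, chloroplast, mitochondria and endoplasmic reticulum. Together they took 8.4%, 10.9% and 8.56% of all reads in the combination libraries, against 0.00229%, 0.015% and 0.0198% in high light. At growth light, heat raised 15 of the 16, with a median of 10.47, and they took 0.827%, 2.61% and 4.89% of reads in heat, against 0.00185%, 0.00507% and 0.00259% in control. The share was thus above that of every heat library in each combination library. The test of the difference passed for 2 of 16, both higher at high light.

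HSP21 (AT4G27670), the small heat shock protein of the chloroplast, had 71690, 149400 and 71920 normalised counts in the combination, against 0, 0 and 12.4 in high light, a change of 15.24 ± 1.07 (SE, adjusted p = 1.24e-06). HSP22.0 (AT4G10250), whose product enters the endoplasmic reticulum, had 246800, 340300 and 182800 in the combination, against 0.783, 4.59 and 44.3 in high light, a change of 14.98 ± 1.19 (adjusted p = 2.48e-06). AT1G53540, a cytosolic class I gene of the HSP20 family, had 777400, 1076000 and 738500 in the combination, against 11, 22.9 and 158 in high light, a change of 14.54 ± 1.38 (adjusted p = 6.06e-06). No combination library overlapped a high light library for any of the 3, and the lowest combination value of all was 71690. The cytosolic class II genes HSP17.6A (AT5G12030) and HSP17.6II (AT5G12020) rose by 13.83 ± 1.39 and 12.48 ± 1.18. HSP23.6-MITO (AT4G25200), of the mitochondria, rose by 13.48 ± 1.24, and the class I genes HSP17.4 (AT3G46230) and HSP18.2 (AT5G59720) by 13.4 ± 1.27 and 13.0 ± 0.59.

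These changes moved when a high light library was left out. The change of HSP21 came to 14.61 without high light 1, 14.61 without high light 2 and 16.48 without high light 3, that of HSP22.0 13.93 without high light 1 and 16.26 without high light 3, and that of AT1G53540 13.75 and 15.62 without the same libraries. The change of HSP17.6A came to 12.69 without high light 1 and 15.13 without high light 3, that of HSP17.6II 11.44 and 13.33, and that of HSP18.2 13.63 without high light 3. The change of HSP23.6-MITO came to 12.15 without high light 1 and 14.3 without high light 2, and that of HSP17.4 was 12.06, 14.04 and 14.1 without high light 1, 2 and 3. All of these passed the threshold in each case. The class I genes share much of their sequence, so the division of reads between them is uncertain.

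The larger heat shock proteins and their helpers rose in 25 of 33 genes and fell in 2, with a median of 3.47 (22 rose and 8 fell with library totals, median 2.57). They took 10.4%, 19.6% and 16.3% of reads in the combination, against 1.73%, 2.23% and 2.15% in high light, and 1.62%, 3.21% and 7.17% in heat, against 0.587%, 0.685% and 0.616% in control. Heat at growth light raised 29 of 33 and lowered 0. Hsp70b (AT1G16030), a cytosolic HSP70, had 751400, 1657000 and 1146000 in the combination, against 124, 189 and 349 in high light, a change of 12.44 ± 1.58 (adjusted p = 4.02e-05). It was spread over 561, 38830 and 360300 in heat, against 177, 333 and 190 in control, and its rise at high light was larger by 5.97 ± 2.24 (adjusted p = 0.0439). HSP70 genes are alike in sequence, so the split of reads among them is uncertain.

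HSP101 (AT1G74310), the disaggregase needed for tolerance of severe heat, had 463500, 1461000 and 997100 in the combination, against 259, 1058 and 3323 in high light, a change of 9.82 ± 1.28 (adjusted p = 4.68e-05). HSP90.1 (AT5G52640), the heat-inducible cytosolic HSP90, had 485900, 1364000 and 849400 in the combination, against 168, 2307 and 2339 in high light, a change of 9.73 ± 1.04 (adjusted p = 1.25e-05). Both were high in all combination libraries, lowest in combination library 1, and neither group overlapped the other. The changes of HSP101 were 8.87 without high light 1 and 10.71 without high light 3, and those of HSP90.1 8.47, 10.36 and 10.37 without high light 1, 2 and 3. CPN60B (AT1G55490), a subunit of the chloroplast chaperonin that folds Rubisco, went the other way, with 15440, 19730 and 19980 in the combination, against 55290, 54610 and 59540 in high light, a change of -1.63 ± 0.2 (adjusted p = 3.41e-05). At growth light its change was 0.26 (adjusted p = 0.303), and the difference was -1.89 ± 0.29 (adjusted p = 0.00027).

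Among heat shock factors and related regulators, 13 of 21 tested genes rose and 1 fell, with a median of 2.65. With library totals 11 rose and 7 fell (median 1.75). With heat at growth light 15 rose and 1 fell. HSFA2 (AT2G26150), the factor that keeps the heat response going, had 252400, 457900 and 427100 in the combination, against 129, 1383 and 4719 in high light, a change of 8.6 ± 1.51 (adjusted p = 0.000404). Heat libraries had 520, 9332 and 78550, against 16.9, 63.8 and 16.2 in control, and the difference of the heat changes was 0.53 ± 2.14 (adjusted p = 0.854). Its level in the combination was above that of every heat library, while its level in high light was above that of every control library. MBF1C (AT3G24500), a transcriptional coactivator needed for heat tolerance, had 106600, 198800 and 150200 in the combination, against 1037, 1015 and 1864 in high light, a change of 6.88 ± 0.71 (adjusted p = 9.61e-06).

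HSFA7B (AT3G63350), a heat shock factor, had 5582, 24060 and 15300 in the combination, against 0.783, 0.765 and 4.43 in high light, a change of 12.27 ± 1.57 (adjusted p = 4.24e-05). In heat it had 0.655, 187 and 672, and it was listed at 0 in all 3 control libraries, so its change at growth light depends on the added 1. Its relative HSFA7A (AT3G51910) had 8058, 26190 and 31750 in the combination, against 32.1, 71.9 and 438 in high light, a change of 7.53 ± 1.09 (adjusted p = 0.000104). HSFA8 (AT1G67970) was the listed factor that fell, with 565, 103 and 51.9 in the combination, against 539, 575 and 451 in high light, a change of -1.83 ± 0.6 (adjusted p = 0.0188). Combination library 1 lay among the high light libraries for HSFA8, and the call was lost without combination library 2 (-1.59), combination library 3 (-1.1) or high light 2 (-1.76), while the change was -2.81 without combination library 1. The call was also lost by edgeR (-1.19) and in a fit of the 2 groups alone (-1.83). The change of HSFA2 came to 7.16 without high light 1 and 9.76 without high light 3, that of HSFA7A 6.72 and 8.58 without the same libraries and 8.14 without combination library 1, and that of HSFA7B 12.86 without combination library 1.

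Genes of protein folding in the endoplasmic reticulum rose in 14 of 21 and fell in 2, with a median of 1.53. With library totals 11 rose and 7 fell (median 0.63). With heat at growth light 17 rose and 2 fell, with a median of 2.03, and the difference of the heat changes passed for 3 upward and 5 downward. ERDJ3A (AT3G08970), a J-protein that brings clients to the chaperone BiP, had 8849, 27620 and 14930 in the combination, against 83.8, 291 and 249 in high light, a change of 6.39 ± 0.53 (adjusted p = 2.82e-06). BIP3 (AT1G09080), a stress-inducible BiP, had 473, 390 and 234 in the combination, against 13.3, 3.82 and 5.31 in high light, a change of 5.54 ± 1.05 (adjusted p = 0.000704). BIP3 did not pass at growth light, with 5.89, 17.1 and 195 in heat, against 87.8, 70.9 and 9.4 in control, and the difference was 6.02 ± 1.49 (adjusted p = 0.00583). BIP2 (AT5G42020), nearly identical in sequence to BIP1, rose by 3.46 ± 0.35. IRE1-1 (AT5G24360), a sensor of unfolded proteins, fell by 1.51 on the log2 scale (adjusted p = 1.68e-05), with 214 to 322 in the combination, against 680 to 736 in high light.

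**Figure D2:**
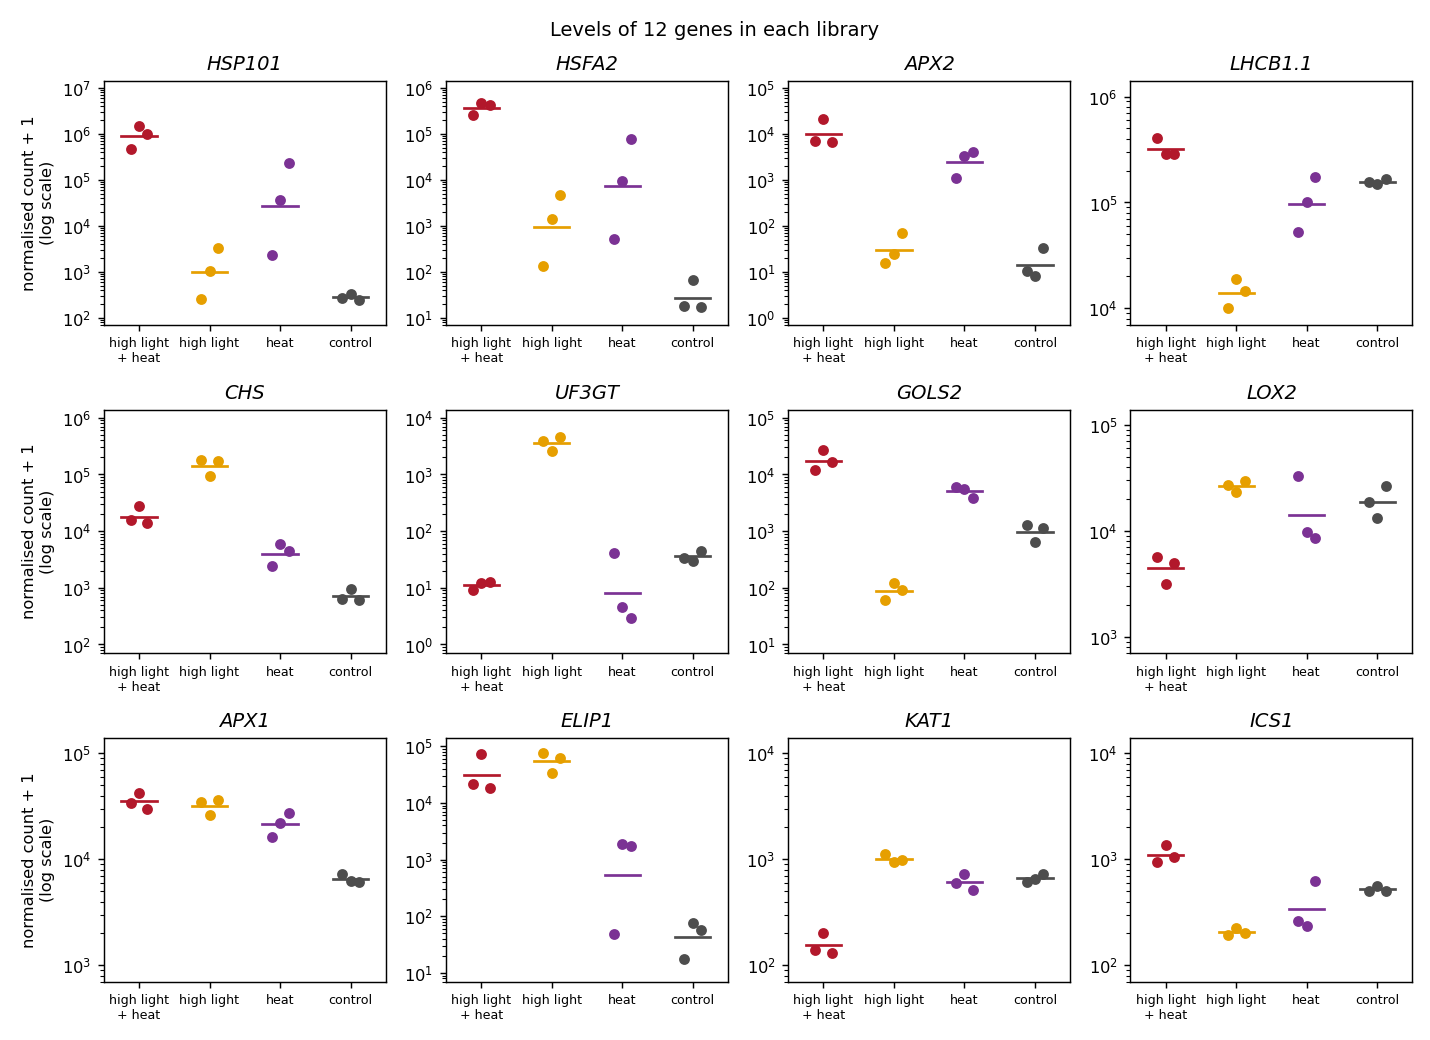
Normalised count + 1 of 12 genes in each library (log scale; points are libraries, 3 per group, and bars are means on the log scale), with the combination leftmost, then high light, heat and control. HSP101, HSFA2 and APX2 are highest in the combination, and their heat libraries lie above control. For HSP101 and HSFA2 heat library 1 lies below high light library 3. LHCB1.1 is low in high light alone, CHS and UF3GT are highest in high light, and the 2 left groups overlap for APX1 and ELIP1.

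Transcripts of light-harvesting antenna proteins rose in 18 of 20 tested genes and fell in 1, with a median of 2.71, and this held for 16 of 20 with library totals as the scaling (median 1.81). These proteins bind chlorophyll and pass light energy to the photosystems. They took 7.85%, 5.18% and 6.02% of reads in the combination, against 1.71%, 2.37% and 1.99% in high light, and 4.84%, 6.57% and 6.45% in heat, against 9.88%, 8.48% and 9.89% in control. Heat at growth light raised 0 by limma (2 at an unadjusted p under 0.05, 1 by edgeR and 2 by DESeq2) and lowered 4, with a median of -0.55. The difference of the heat changes passed for 20 of 20, positive for 18 and negative for 2.

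LHCB1.1 (AT1G29920), an antenna protein of photosystem II, had 402300, 286600 and 288000 in the combination, against 10130, 18790 and 14590 in high light, a change of 4.51 ± 0.38 (adjusted p = 3.35e-06). Heat libraries had 52480, 101500 and 174200, against 155900, 148900 and 165000 in control, a change of -0.68 that did not pass (adjusted p = 0.158). Its normalised level in the combination was thus above that of every library of the other 3 groups, and in high light below all of them. By mean share of reads it took 0.615% in the combination, 0.0504% in high light, 0.354% in heat and 0.564% in control. The combination and control were thus much closer by share, and their order depends on the scaling. LHCB1.4 (AT2G34430) had 127400, 76860 and 69270 in the combination, against 272, 1017 and 373 in high light, a change of 7.55 ± 0.5 (adjusted p = 9.27e-07). LHCB2.3 (AT3G27690) had 54750, 54100 and 61190 in the combination, against 223, 857 and 360 in high light, a change of 7.11 ± 0.78 (adjusted p = 1.5e-05). LHCB2.2 (AT2G05070) rose by 4.62 ± 0.43. Reads of the near-identical LHCB1 and LHCB2 copies may have been divided among them, so single values are uncertain.

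The member that fell was NPQ4 (AT1G44575), which codes for PsbS, the protein that turns excess light energy to heat. It had 90480, 83760 and 82230 in the combination, against 156100, 144000 and 144400 in high light, a change of -0.79 ± 0.2 (adjusted p = 0.0047). High light libraries were above all others for NPQ4. In normalised counts the combination libraries lay between them and the heat libraries at 49710 to 66180 and the control libraries at 38350 to 42150. By mean share of reads NPQ4 was at 0.16% in the combination, 0.515% in high light, 0.192% in heat and 0.144% in control. The order of the combination and heat thus depends on the scaling. The difference of its heat changes was -1.29 ± 0.28 (adjusted p = 0.00295).

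Nuclear-encoded subunits of the photosystems rose in 23 of 24 genes and fell in 0, with a median of 1.75 (0.85 with library totals, where 19 rose and 1 fell). Their share of reads was 4.22%, 2.98% and 3.32% in the combination, against 1.68%, 2.12% and 1.98% in high light. It was 3.3%, 3.77% and 3.26% in heat, against 5.66%, 4.8% and 5.35% in control. At growth light heat raised 0 and lowered 12, and the difference of the heat changes was positive and passed for all 24. For these 24 genes, and for the other groups whose count of 0 for a heat change is printed here with the deposited scaling, the counts at an unadjusted p under 0.05, by edgeR and by DESeq2 were also 0 unless given beside it. PSAD-2 (AT1G03130), a stromal subunit of photosystem I, had 37270, 34230 and 39600 in the combination, against 2268, 4893 and 3805 in high light, a change of 3.41 ± 0.34 (adjusted p = 7.74e-06). PSBQ-2 (AT4G05180), of the oxygen-evolving complex of photosystem II, rose by 2.53 ± 0.2, and PSAH2 (AT1G52230), a photosystem I subunit, by 2.34 ± 0.21. In normalised counts the combination libraries of PSBQ-2, at 86520 to 93950, lay within the range of control, at 73750 to 100600. Those of high light lay at 13320 to 18820. Its mean share of reads was 0.169% in the combination, 0.318% in control and 0.0551% in high light. The closeness of the combination to control thus depends on the scaling.

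Genes of photosystem II repair and assembly rose in 7 of 17 and fell in 0 (1 by edgeR), with a median of 0.46 that turned to -0.44 with library totals, where 3 rose and 8 fell. FTSH6 (AT5G15250), a chloroplast protease, had 169, 656 and 234 in the combination, against 0.783, 0.765 and 1.77 in high light, a change of 7.17 ± 0.49 (adjusted p = 1.08e-06). It rose by 7.04 at growth light, with a difference of 0.13 ± 0.69 (adjusted p = 0.889). Of 8 early light-induced proteins and relatives, 3 rose and 2 fell (1 and 4 with library totals), near the 28.1% and 29.3% of all genes tested. OHP (AT5G02120), a one-helix protein that helps assemble photosystem II, rose by 1.44 ± 0.27 (adjusted p = 0.000614).

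ELIP1 (AT3G22840), an early light-induced chlorophyll-binding protein, had 22000, 72680 and 18570 in the combination, against 75560, 33710 and 63100 in high light, and the groups overlapped (change -0.81 ± 1.12, adjusted p = 0.552). ELIP2 (AT4G14690) had 896, 3239 and 693 in the combination, against 21270, 3424 and 14770 in high light, a change of -3.02 ± 1.07 (adjusted p = 0.0277). At growth light ELIP1 rose with heat by 3.63 (adjusted p = 0.0169), so that the differences were -4.45 ± 1.58 for ELIP1 (adjusted p = 0.0357) and -5.69 ± 1.51 for ELIP2 (adjusted p = 0.00861). The groups of ELIP2 did not overlap, though combination library 2 and high light 2 lay close together. Its call was lost without combination library 1 (-2.77) or 3 (-2.59) and without high light 1 (-2.49) or 3 (-2.76), and the change was -3.7 without combination library 2 and -3.81 without high light 2.

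Chlorophyll synthesis genes rose in 7 of 15 and fell in 1, with a median of 0.47 that turned to -0.43 with library totals, where 6 rose and 8 fell. PORA (AT5G54190), a light-dependent protochlorophyllide reductase, had 587, 349 and 391 in the combination, against 5.48, 2.29 and 1.77 in high light, a change of 6.79 ± 0.7 (adjusted p = 9.53e-06). The heat libraries had 28.8, 132 and 428, against 1600, 1141 and 1361 in control, a fall, and the difference of 10.3 ± 0.99 was the largest positive one among named genes (adjusted p = 1.91e-05). Its relative PORB (AT4G27440) fell at both light levels, with log2 changes of -1.72 at high light and -1.84 at growth light. PORB was thus lowest in the combination, at 2707 to 4800, against 9857 to 11850 in high light.

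Of 11 genes of chlorophyll breakdown and senescence, 6 rose and 3 fell, with a median of 0.82 that turned to -0.08 with library totals. SEN1 (AT4G35770), a dark- and senescence-induced gene, had 107, 74.7 and 117 in the combination, against 0, 0.765 and 0.885 in high light, a change of 6.05 ± 0.44 (adjusted p = 1.38e-06). NAP (AT1G69490), a NAC transcription factor of leaf senescence, had 413, 433 and 942 in the combination, against 6.88 to 15.9 in high light, a change of 5.41 ± 0.45 (adjusted p = 2.93e-06). SEN1 fell at growth light, by 1.67 on the log2 scale, and NAP rose there by 2.33, and for both the rise was larger at high light. NYE1 (AT4G22920), which takes magnesium out of chlorophyll, rose by 1.6 ± 0.2, and NYC1 (AT4G13250), a chlorophyll b reductase, fell by 2.87 on the log2 scale (adjusted p = 6.06e-06).

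Carotenoid and tocopherol synthesis changed in both directions, with 5 of 14 genes up and 3 down and a median of 0.43 (-0.47 with library totals). BCH2 (AT5G52570), a beta-carotene hydroxylase of xanthophyll synthesis, had 6003, 8478 and 6066 in the combination, against 159, 317 and 216 in high light, a change of 4.92 ± 0.42 (adjusted p = 3.22e-06). It rose at growth light too, by 4.42, and the difference of 0.5 ± 0.59 did not pass (adjusted p = 0.505). LUT5 (AT1G31800), a cytochrome P450 that hydroxylates carotenes, fell by 1.33 on the log2 scale (adjusted p = 9.28e-06), and its change at growth light was 0.07 (adjusted p = 0.694).

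In the Calvin cycle 7 of 18 genes rose and 0 fell (1 by edgeR and 1 by DESeq2), and the median of 0.36 turned to -0.54 with library totals, where 3 rose and 9 fell. RCA (AT2G39730), Rubisco activase, the heat-sensitive protein that keeps Rubisco working, had 436500, 544600 and 630800 in the combination, against 87330, 151000 and 129000 in high light, a change of 2.15 ± 0.38 (adjusted p = 0.000441). All genes of the cycle together took 4.37%, 3.53% and 4.48% of reads in the combination, against 4.51%, 5.4% and 5.29% in high light. Of 8 photorespiration genes 5 rose and 1 fell (median 0.82, and -0.08 with library totals, where 1 rose and 3 fell). GGT1 (AT1G23310), a glyoxylate aminotransferase, rose by 1.46 ± 0.28 and HPR (AT1G68010), hydroxypyruvate reductase, by 1.4 ± 0.34 (0.5 with library totals, where the call was lost).

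The 2 genes of the glycine decarboxylase P-protein went opposite ways with the deposited scaling. GLDP2 (AT2G26080) had 22770, 27490 and 33210 in the combination, against 13620, 15990 and 11760 in high light, a change of 1.01 ± 0.34 (adjusted p = 0.0217). GLDP1 (AT4G33010) had 39020, 39270 and 73590 in the combination, against 100800, 104400 and 77950 in high light, a change of -0.95 ± 0.29 (adjusted p = 0.0129). Neither pair of groups overlapped, but both calls were close to the threshold. That of GLDP2 was lost without combination library 2 (1.01) or 3 (0.87) and without high light 1 (1.0) or 3 (0.9), and with library totals (0.11, adjusted p = 0.752), and that of GLDP1 without combination library 1 (-0.8) or 2 (-0.81).

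Of 27 genes that scavenge reactive oxygen, 10 rose and 5 fell, with a median of 0.23 that turned to -0.67 with library totals, where 4 rose and 12 fell. With heat at growth light 11 rose and 1 fell. APX2 (AT3G09640), a cytosolic ascorbate peroxidase induced by heat and light stress, had 6994, 21170 and 6692 in the combination, against 14.1, 23.7 and 68.2 in high light, a change of 8.4 ± 0.69 (adjusted p = 2.76e-06), or 9.01 without high light 3. At growth light its change was 7.47, and the difference of 0.93 ± 0.97 did not pass (adjusted p = 0.452).

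The main cytosolic peroxidase APX1 (AT1G07890) had 34000, 42750 and 30120 in the combination, against 34830, 26280 and 36400 in high light, with overlap between the groups (change 0.13 ± 0.22, adjusted p = 0.633; -0.77 with library totals). In heat it had 16410, 22220 and 27460, against 7279, 6263 and 6070 in control, a rise of 1.73, and the difference was -1.59 ± 0.32 (adjusted p = 0.00157). APX1 was thus above every control library in both high light groups. SAPX (AT4G08390), the stromal ascorbate peroxidase of chloroplasts, had 3201, 2554 and 3162 in the combination, against 11780, 8317 and 13400 in high light, a change of -1.89 ± 0.22 (adjusted p = 2.4e-05). At growth light SAPX changed by 0.5 (adjusted p = 0.0803), and the difference was -2.38 ± 0.31.

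Flavonoid and anthocyanin enzymes fell in 16 of 18 genes and rose in 0, with a median of -3.18. These enzymes make flavonols and the red anthocyanins that shade leaves in strong light. They took 0.144%, 0.181% and 0.148% of reads in the combination, against 1.77%, 0.85% and 1.52% in high light, and 0.0472%, 0.0459% and 0.0782% in heat, against 0.0259%, 0.0342% and 0.0324% in control. At growth light heat raised 4 and lowered 4, and the difference of the heat changes was negative and passed for 15 of 18.

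CHS (AT5G13930), chalcone synthase, which opens the pathway, had 15790, 27540 and 13640 in the combination, against 179700, 94170 and 175300 in high light, a change of -2.99 ± 0.36 (adjusted p = 3e-05). In heat it had 2471, 5865 and 4426, against 631, 949 and 600 in control, a rise of 2.49, and the difference was -5.48 ± 0.51 (adjusted p = 1.7e-05). CHS in the combination thus lay below high light and above heat and control. UF3GT (AT5G54060), an anthocyanin glycosyltransferase whose promoter with 2 G-boxes is shown above, had 8.27, 11.2 and 11.7 in the combination, against 3855, 2589 and 4596 in high light, a change of -8.31 ± 0.72 (adjusted p = 3.72e-06). TT7 (AT5G07990), flavonoid 3'-hydroxylase, had 52.9, 31.8 and 21.7 in the combination, against 21100, 4564 and 13220 in high light, also a change of -8.31 (± 0.49, adjusted p = 4.54e-07; -8.93 without high light 2).

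5MAT (AT3G29590), an anthocyanin malonyltransferase, fell by 7.8 on the log2 scale, and UGT78D3 (AT5G17030), a flavonol arabinosyltransferase, fell by 6.98. Combination levels of UF3GT and 5MAT, the second at 5.02 to 16.8, lay below all control libraries, the lowest of which were 29.2 and 38.8. TT7 in the combination, at 21.7 to 52.9, overlapped control, at 29.6 to 41.9.

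Among 20 flavonoid and light regulators, 5 rose and 8 fell (3 and 12 with library totals). PAP2 (AT1G66390), a MYB factor that activates anthocyanin synthesis, had 11.6, 0 and 1.67 in the combination, against 886, 385 and 1256 in high light, a change of -7.87 ± 0.8 (adjusted p = 9.12e-06). MYB11 (AT3G62610), a MYB activator of flavonol synthesis, had 0, 9.34 and 1.67 in the combination, against 446, 226 and 272 in high light, a change of -6.65 ± 0.84 (adjusted p = 3.97e-05). Both were near 0 in the combination, in heat and in control, and high in high light alone. The change of PAP2 was -8.85 without combination library 1 and -7.02 without library 2, and that of MYB11 was -5.85 and -7.53 without the same libraries. PIF4 (AT2G43010), a bHLH factor of growth at warm temperature, had 2310, 2976 and 4524 in the combination, against 612, 1185 and 1012 in high light, a change of 1.8 ± 0.26 (adjusted p = 0.000102), and fell by 0.9 on the log2 scale at growth light.

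**Figure D3:**
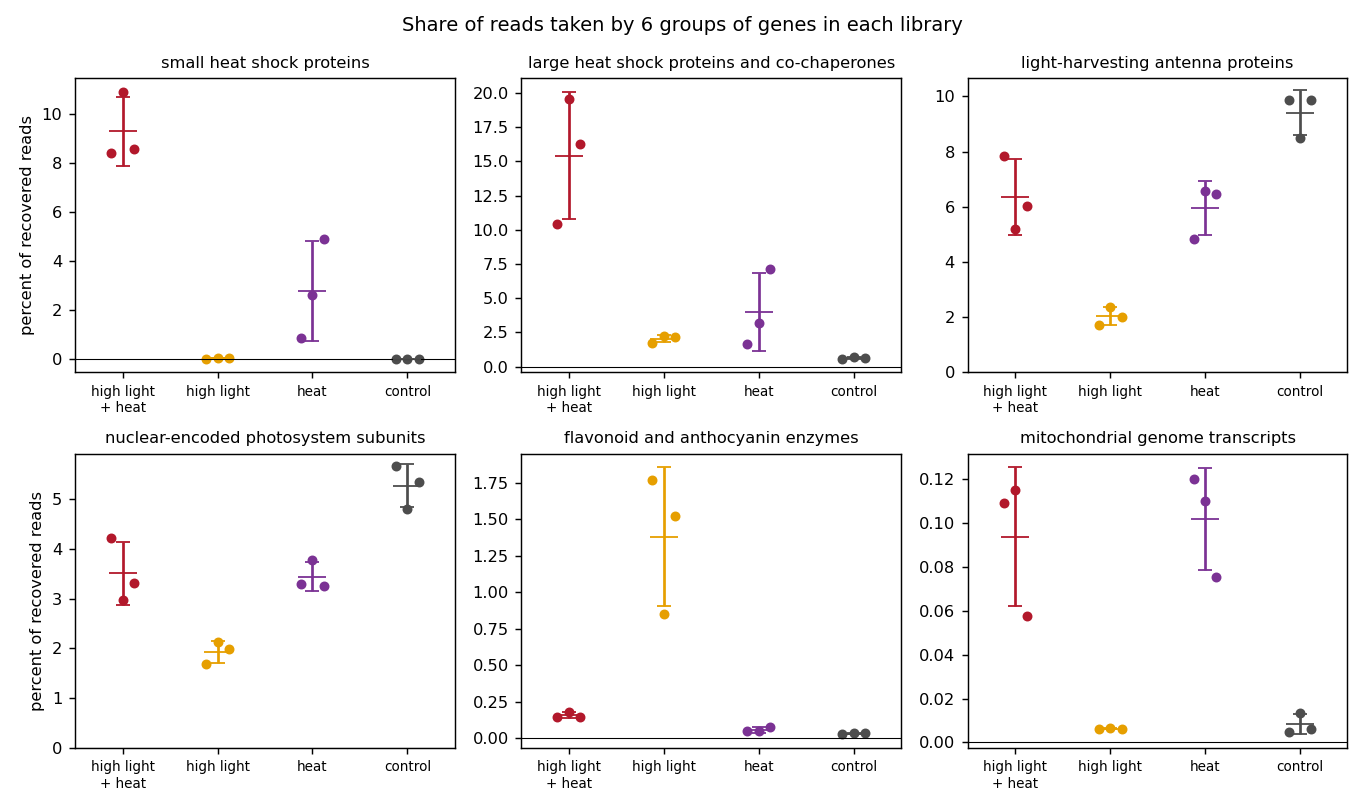
Percent of recovered reads taken by 6 groups of genes in each library (points are libraries, bars are the mean ± SD, n = 3 per group), with the combination leftmost, then high light, heat and control. Heat shock proteins reach 8.4% to 10.9% (small) and 10.4% to 19.6% (large) in the combination, antenna and photosystem genes are lowest in high light, and flavonoid enzymes are highest in high light.

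Jasmonate genes make and read a hormone of wounding and defence. Of 16 genes of synthesis and turnover 3 rose and 5 fell, with a median of -0.08. These counts are near the shares over all genes tested, 28.1% higher and 29.3% lower. With upper-quartile scaling 0 rose and 5 fell, and with library totals 0 rose and 9 fell (median -0.91). LOX2 (AT3G45140), the chloroplast lipoxygenase of the first step, had 5658, 3176 and 5006 in the combination, against 27320, 23400 and 29480 in high light, a change of -2.57 ± 0.43 (adjusted p = 0.000308). AOC2 (AT3G25770), an allene oxide cyclase, had 2634, 613 and 768 in the combination, against 6280, 6377 and 7266 in high light, a change of -2.62 ± 0.41 (adjusted p = 0.000183; -3.27 without combination library 1). AOS (AT5G42650), allene oxide synthase, overlapped between the groups at 6744 to 9102 in the combination, against 8366 to 8907 in high light (change -0.12 ± 0.24, adjusted p = 0.682; -1.02 with library totals). AOC1 (AT3G25760) rose by 0.64 ± 0.19 (adjusted p = 0.00987), a call lost without high light 1 (0.52) and a change of -0.25 with library totals.

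Of 14 tested genes of jasmonate signalling and output, 4 rose and 2 fell, with a median of 0.26. With upper-quartile scaling 2 rose and 3 fell, and with library totals 0 rose and 6 fell (median -0.63). The 2 that fell were the vegetative storage proteins, jasmonate-induced proteins of leaves. VSP1 (AT5G24780) had 64.5, 9.34 and 10 in the combination, against 7855, 1977 and 9577 in high light, a change of -8.08 ± 1.09 (adjusted p = 6.19e-05), or -8.95 without combination library 1 and -8.79 without high light 2. VSP2 (AT5G24770) had 1033, 61.7 and 60.2 in the combination, against 6930, 2795 and 11400 in high light, a change of -5.26 ± 1.11 (adjusted p = 0.00145), with -6.61, -4.59 and -4.57 without combination library 1, 2 and 3. At growth light VSP2 rose with heat by 3.99 (adjusted p = 0.0101), and the differences were -10.1 ± 1.54 for VSP1 and -9.24 ± 1.57 for VSP2. JAZ12 (AT5G20900), a repressor of jasmonate signalling, rose by 0.96 ± 0.14, a call lost with library totals (0.06, adjusted p = 0.731), and JAZ10 (AT5G13220) overlapped, with 71.1, 144 and 78.6 in the combination, against 105, 52 and 49.6 in high light (change 0.52 ± 0.58, adjusted p = 0.464; -0.37 with library totals).

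Genes of abscisic acid, the hormone of water shortage, rose in 15 of 26 and fell in 6, with a median of 1.07. With library totals 8 rose and 8 fell. NCED3 (AT3G14440), the rate-limiting enzyme of its synthesis under stress, had 594, 1179 and 621 in the combination, against 189, 141 and 191 in high light, a change of 2.13 ± 0.43 (adjusted p = 0.00116). The 8'-hydroxylases that break the hormone down split: CYP707A3 (AT5G45340) rose by 3.43 ± 0.38 and CYP707A4 (AT3G19270) by 2.66 ± 0.45, while CYP707A2 (AT2G29090) fell by 4.39 on the log2 scale (adjusted p = 6.65e-06; -5 without combination library 1). CYP707A2 had 76.1, 22.4 and 18.4 in the combination, against 773, 784 and 525 in high light. RD29B (AT5G52300), an abscisic acid target, had 838, 91.5 and 82 in the combination, against 9.39, 8.41 and 21.3 in high light, a change of 3.84 ± 0.86 (adjusted p = 0.00221), or 2.76 without combination library 1 and 4.43 without library 3.

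Salicylic acid and defence genes rose in 2 of 16 and fell in 5, with a median of -0.01 (1 and 8 with library totals, median -0.91). Under growth light heat raised 0 and lowered 12, with a median of -2.97, and the difference of the heat changes was positive and passed for 11. ICS1 (AT1G74710), isochorismate synthase of salicylic acid synthesis, had 949, 1358 and 1051 in the combination, against 191, 223 and 201 in high light, a change of 2.43 ± 0.3 (adjusted p = 3.36e-05). PR5 (AT1G75040), a pathogenesis-related protein, had 200, 433 and 239 in the combination, against 4063, 2957 and 3871 in high light, a change of -3.71 ± 0.39 (adjusted p = 1.1e-05). PR5 fell at growth light too, by 2.63 on the log2 scale, and the difference of -1.07 ± 0.55 did not pass (adjusted p = 0.128).

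Of 9 tested stress zinc fingers and NADPH oxidases, 6 rose and 2 fell, with a median of 2.22. The zinc finger repressor ZAT10 (AT1G27730) had 2409, 2735 and 1712 in the combination, against 377, 106 and 207 in high light, a change of 3.47 ± 0.57 (adjusted p = 0.00024). ZAT12 (AT5G59820), a regulator of the oxidative stress response, had 1005, 2158 and 1635 in the combination, against 330, 82.6 and 259 in high light, a change of 2.98 ± 0.62 (adjusted p = 0.00132; 2.38 without high light 2). Heat raised both at growth light as well, and their differences did not pass. ZAT7 (AT3G46090), another zinc finger of the family, rose by 4.51 ± 0.74, and its difference of 5.86 ± 1.04 passed (adjusted p = 0.000796). RBOHD (AT5G47910), the NADPH oxidase that makes superoxide in stress signalling, had 425, 749 and 480 in the combination, against 1325, 1230 and 935 in high light, a change of -1.1 ± 0.28 (adjusted p = 0.00479), and rose by 0.83 at growth light.

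Of 19 clock genes 9 were higher and 6 lower (7 and 10 with library totals), against 28.1% and 29.3% of all genes tested. The count of lower genes was near that share. RVE1 (AT5G17300), a MYB-like factor that peaks at dawn, had 904, 1848 and 2406 in the combination, against 5.48, 8.41 and 8.85 in high light, a change of 7.56 ± 1.02 (adjusted p = 6.26e-05). The evening gene ELF4 (AT2G40080) had 241, 13.1 and 13.4 in the combination, against 3819, 1809 and 3392 in high light, a change of -6.29 ± 0.85 (adjusted p = 6.42e-05), and -7.65, -5.6 and -5.61 without combination library 1, 2 and 3. For RVE1 and ELF4 the difference from heat at growth light passed in the direction of the change.

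Starch and raffinose genes rose in 5 of 13 and fell in 6, with a median of 0.1 that turned to -0.8 with library totals. GOLS2 (AT1G56600), galactinol synthase of the raffinose pathway, had 11920, 26820 and 16680 in the combination, against 59.5 to 122 in high light, a change of 7.63 ± 0.34 (adjusted p = 1.11e-07). In heat it had 6024, 5592 and 3838, against 1277, 649 and 1142 in control, a rise of 2.36, and the difference was 5.27 ± 0.49 (adjusted p = 1.63e-05). GOLS2 was thus lowest in high light and highest in the combination. BAM5 (AT4G15210), a beta-amylase outside the chloroplast, went the other way, with 13.2, 22.4 and 13.4 in the combination, against 1348, 775 and 2525 in high light, a change of -6.36 ± 0.96 (adjusted p = 0.000135). At growth light BAM5 rose with heat by 5.14, so that its difference of -11.5 ± 1.35 was the largest negative one among named genes.

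Of DNA replication and cell division genes, heat at high light raised 3 of 17 and lowered 2, with a median of 0.03 (0 higher and 12 lower with library totals, median -0.87). At growth light the same heat lowered 16 of 17, with a median of -1.66, and the difference passed for 12 upward and 2 downward. MCM7 (AT4G02060), a subunit of the replicative helicase, had 810, 1481 and 1303 in the combination, against 650, 541 and 661 in high light, a change of 0.92 ± 0.22 (adjusted p = 0.00309; 0.02 with library totals, where the call was lost). In heat it had 161, 153 and 190, against 599, 778 and 727 in control, and the difference was 2.97 ± 0.31 (adjusted p = 2.87e-05). PCNA2 (AT2G29570), a sliding clamp of replication, fell at both light levels, with log2 changes of -2.4 and -1.14.

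Plasma membrane aquaporins, the water channels of the cell, rose in 10 of 13 and fell in 1, with a median of 1.88 (0.98 with library totals). Heat at growth light raised 8 and lowered 1, with a median of 0.91. RD28 (AT2G37180) had 14890, 28640 and 11940 in the combination, against 441, 978 and 818 in high light, a change of 4.6 ± 0.45 (adjusted p = 7.28e-06). Its change at growth light was 5.92, and the difference of -1.32 ± 0.64 did not pass (adjusted p = 0.109). PIP1;5 (AT4G23400) rose by 2.78 ± 0.15 and PIP3 (AT4G35100) by 2.45 ± 0.2, both with larger changes than at growth light, by 2.34 ± 0.22 and 2.38 ± 0.28. PIP2;8 (AT2G16850) changed by -0.85 ± 0.28 (adjusted p = 0.0205), a call lost without combination library 1 (-0.65) or high light 1 (-0.71).

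Expansins, which loosen cell walls in growth, fell in 4 of 9 and rose in 1 (7 and 0 with library totals). EXPA4 (AT2G39700) had 121, 209 and 186 in the combination, against 1378, 1715 and 1773 in high light, a change of -3.26 ± 0.39 (adjusted p = 2.77e-05). EXPA8 (AT2G40610) had 142, 146 and 212 in the combination, against 11, 87.9 and 21.3 in high light, a change of 2.52 ± 0.7 (adjusted p = 0.00777), or 1.89 without high light 1 and 3.34 without high light 2, a call lost with library totals (1.64). EXPA8 was higher in control, at 3821 to 4836, than in any stressed library. Of 7 fatty acid desaturases, which set the fluidity of membranes, 3 rose and 0 fell (median 0.4, and -0.5 with library totals). SSI2 (AT2G43710), stearoyl-ACP desaturase, rose by 2.03 ± 0.24, with 18860 to 20640 in the combination, against 4609 to 5031 in high light.

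SR proteins, which guide the choice of splice sites, rose in 14 of 19 and fell in 2, with a median of 0.74 that turned to -0.16 with library totals, where 3 rose and 6 fell. SR45A (AT1G07350), an SR-like splicing factor that responds to stress, had 20500, 62240 and 44500 in the combination, against 1015, 2469 and 3759 in high light, a change of 4.18 ± 0.52 (adjusted p = 3.52e-05). SR30 (AT1G09140) rose by 2.59 ± 0.29 and SCL33 (AT1G55310) by 1.57 ± 0.25, while RS31A (AT2G46610) fell by 1.08 on the log2 scale. For SR45A, SR30 and SCL33 the difference from heat at growth light did not pass, at 0.64 ± 0.74, 0.27 ± 0.41 and 0.46 ± 0.35. RS31A rose at growth light by 1.18, and its difference of -2.26 ± 0.35 passed (adjusted p = 0.000324).

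Among the 10 largest rises and falls outside these lists, PUM21 (AT5G09610), an RNA-binding pumilio protein, had 838, 5080 and 1435 in the combination, against 0.783, 0 and 0.885 in high light, a change of 10.25 ± 0.92 (adjusted p = 4.27e-06; 9.52 without combination library 2). GA2OX8 (AT4G21200), a gibberellin 2-oxidase that inactivates gibberellins, had 1.65, 9.34 and 1.67 in the combination, against 1152, 528 and 1024 in high light, a change of -7.67 ± 0.58 (adjusted p = 1.7e-06; -8.33 without combination library 2). CSLA01 (AT4G16590), a cellulose synthase-like protein, had 3.31, 0 and 0 in the combination, against 378, 389 and 261 in high light, a change of -7.7 ± 1.06 (adjusted p = 7.24e-05; -8.4 without combination library 1). GA2OX8 and CSLA01 were near 0 in the combination and in control, and CSLA01 was at 158 in 1 heat library. TAS1A (AT2G27400), the precursor of trans-acting small RNAs, had 54.6, 0 and 0 in the combination, against 622, 594 and 673 in high light, a change of -7.37 ± 1.1 (adjusted p = 0.000129), with -9.3, -6.4 and -6.4 without combination library 1, 2 and 3. TAS1A was at 413 to 560 in heat and 309 to 349 in control, above every combination library.

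ASN1 (AT3G47340), asparagine synthetase, a gene induced when sugar is short, had 574, 579 and 1092 in the combination, against 13.3, 9.18 and 3.54 in high light, a change of 6.36 ± 0.57 (adjusted p = 4.34e-06). The heat libraries had 66.1, 52.1 and 272, against 534, 378 and 700 in control, a fall of 2.4 on the log2 scale, and the difference was 8.75 ± 0.81 (adjusted p = 1.63e-05). PGL1 (AT1G13700), a 6-phosphogluconolactonase of the pentose phosphate pathway, rose by 4.68 ± 0.44 at high light and fell by 3.36 on the log2 scale at growth light, a difference of 8.05 ± 0.63 (adjusted p = 9.65e-06). Normalised levels of ASN1 in the combination overlapped those of control, with combination library 3 above all control libraries, and lay above every high light library. Its mean share of reads was 0.00141% in the combination and 0.00192% in control, so its place against control depends on the scaling. PGL1 in the combination, at 26.2 to 45.2, lay below control, at 147 to 197, and above high light, at 0 to 1.77. With so few reads in high light the size of its change there depends on the added 1. It ranged from 2.1 to 6.06 over the settings tried.

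Transcripts of the mitochondrial genome rose in 37 of 39 tested genes and fell in 0, with a median of 3.78, and in 39 of 39 with heat at growth light, with a median of 4.42. They took 0.109%, 0.115% and 0.0577% of reads in the combination, against 0.00626%, 0.00666% and 0.00596% in high light, and 0.12%, 0.11% and 0.0756% in heat, against 0.005%, 0.0135% and 0.00632% in control. The gene ATMG00080 had 1162, 1523 and 798 in the combination, against 11.7, 9.18 and 6.2 in high light, a change of 6.84 ± 0.29 (adjusted p = 1.11e-07). ATMG00060 rose by 6.29 ± 0.51 and ATMG00090 by 5.53 ± 0.35. Libraries were made from poly(A) RNA, which plant organelle transcripts mostly are not, and how far these shares follow organelle RNA as a whole was not tested.

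Of 79 tested chloroplast genome transcripts, 29 rose and 7 fell, with a median of 0.95 (0.14 with library totals). They took 0.0422%, 0.212% and 0.0274% of reads in the combination, against 0.0322%, 0.0262% and 0.0176% in high light, and combination library 2 stood apart. ATCG00290 had 61.2, 777 and 66.9 in the combination, against 6.26, 4.59 and 1.77 in high light, a change of 4.94 ± 0.87 (adjusted p = 0.000406), or 3.75 without combination library 2 and 5.57 without library 1. ATCG00790 had 21.5, 61.7 and 8.37 in the combination, against 129, 104 and 107 in high light, a change of -2.27 ± 0.54 (adjusted p = 0.00331), or -2.97 without combination library 2 and -1.6 without library 3.

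Of the markers of other leaf cell types, most of guard cells and phloem fell, while most of epidermis and xylem did not pass with the deposited scaling. Guard cell markers fell in 6 of 7 genes and rose in 0, with a median of -1.47, and their sum was 509 to 768 in the combination, against 2154 to 2262 in high light, and 1417 to 1931 in heat, against 1841 to 2128 in control. KAT1 (AT5G46240), a potassium channel of guard cells, had 139, 202 and 129 in the combination, against 1114, 946 and 990 in high light, a change of -2.72 ± 0.2 (adjusted p = 1.38e-06). GORK (AT5G37500), the outward potassium channel, fell by 2.0 on the log2 scale and FAMA (AT3G24140), a bHLH factor of guard cell fate, by 1.58. No marker of the list was at 0 in either group.

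Phloem markers fell in 4 of 5 and rose in 1, and their sum was 3662 to 4219 in the combination, against 7089 to 8337 in high light. SWEET12 (AT5G23660), a sucrose exporter, had 165, 33.6 and 21.7 in the combination, against 774, 685 and 850 in high light, a change of -3.92 ± 0.6 (adjusted p = 0.000144; -4.77 without combination library 1). SULTR2;1 (AT5G10180), a sulfate transporter, fell by 1.55 on the log2 scale and SUC2 (AT1G22710), the phloem sucrose transporter, by 0.97. APL (AT1G79430), a phloem identity factor, changed by 0.67 ± 0.22 (adjusted p = 0.0221), a call lost without combination library 2 (0.55) or 3 (0.65) or high light 1 (0.53), and by -0.23 with library totals.

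Epidermis markers rose in 1 of 6 and fell in 1, with a median of -0.1 (0 rose and 5 fell with library totals, median -1.0), and their sums overlapped, at 16590 to 26710 in the combination and 21500 to 26310 in high light. CER6 (AT1G68530), a wax synthesis enzyme, fell by 0.86 on the log2 scale. CER5 (AT1G51500), a wax exporter, changed by 0.56 ± 0.19 (adjusted p = 0.0214), a call lost without combination library 3 (0.33) or high light 1 (0.54) or 3 (0.53), and by -0.34 with library totals. Xylem markers rose in 1 of 5 and fell in 0 (0 and 2 with library totals), with sums of 1896 to 3284 in the combination and 1856 to 2447 in high light. The gene that rose was XCP1 (AT4G35350), a xylem protease, at 0.91 ± 0.28 (adjusted p = 0.0151), a call lost without combination library 2 (0.73), high light 1 (0.84) or high light 2 (0.84), and with library totals (0.01). The part of cell-type makeup in the results above was not tested.

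**Figure D4:**
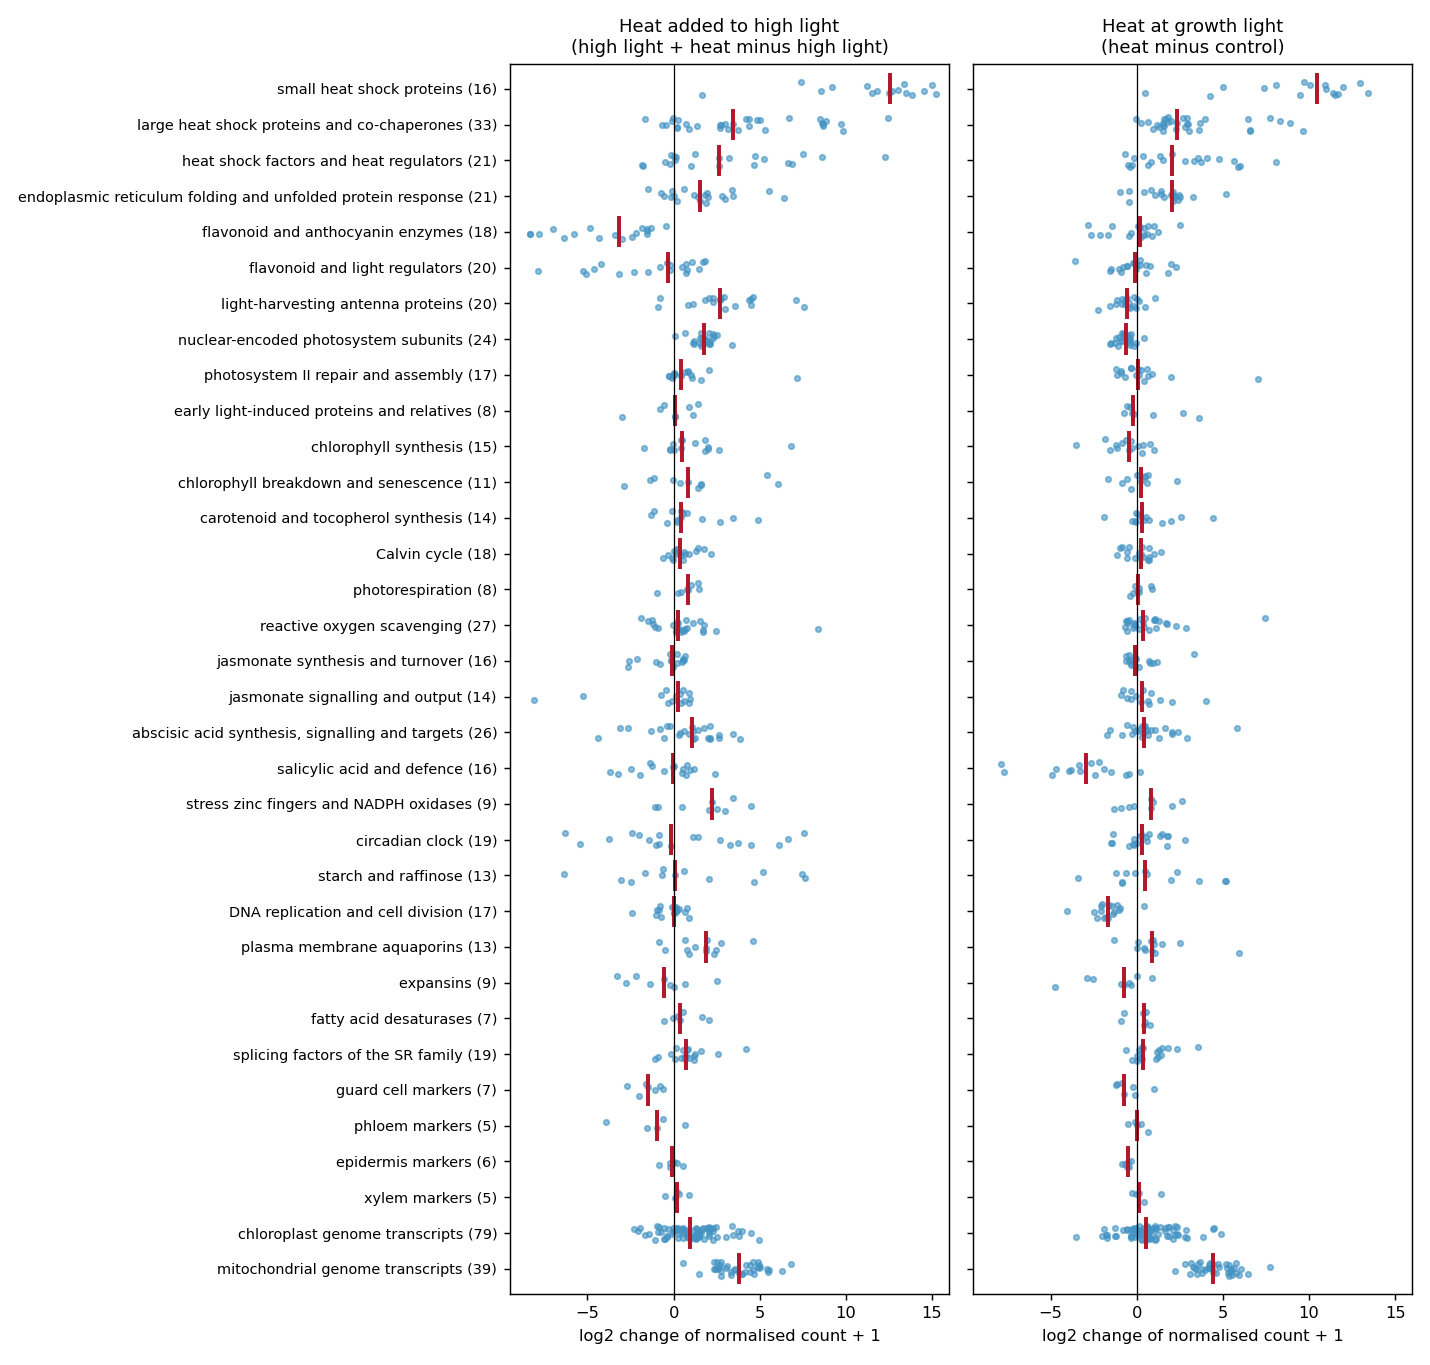
Log2 change of each tested member (points) and median (red bar) of 34 gene groups with at least 5 tested members, with heat added to high light (left) and with heat at growth light (right), with the number of members tested in brackets. Antenna and photosystem genes have medians of 2.71 and 1.75 at left and -0.55 and -0.65 at right, flavonoid enzymes -3.18 at left and 0.19 at right, and small heat shock proteins 12.57 at left and 10.47 at right.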

How the data were processed

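Per the labels' protocols, leaf RNA was extracted with Trizol, cleaned on a column and made into poly(A) libraries. Per the submitters' processing notes, FastQC 0.11.7, STAR 2.4.0.1 and DESeq2 1.20.0 were used with TAIR10. The counting tool, the strand and the annotation are not given in the sources used here, so reads of overlapping or antisense genes cannot be told apart. The signal that the authors deposited is, per library, a read count over a size factor. Dividing by the smallest step gave whole reads for 100% of values (within 0.001). Of 32833 loci, 32548 are in RefSeq's table for TAIR10.1, the source of names and promoters.

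limma 3.58.1 (trend, R 4.3.3) was fitted to log2(normalised count + 1) of all 12 libraries with 1 mean per group, for genes with a mean of at least 10. The tests were the combination minus high light, heat minus control and the difference of the 2, two-sided, with Benjamini-Hochberg adjustment within each and a threshold of 0.05. The fit was tested on simulated data in which few genes changed, as many up as down, so that test cannot judge the scaling. Other settings tried were a pseudocount of 0.5 or 10, a minimum mean of 0 or 50, scaling by TMM or the upper quartile, the replicate number as a block, a fit of the compared groups alone, a stricter threshold (0.01), a minimum log2 change of 1, each library left out, and count tests of the recovered reads with DESeq2 1.42.0 and edgeR 4.0.16. Library totals as the scaling were added after seeing the data.

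The groups of genes were 33 lists and the transcripts of both organelle genomes, 35 in all. Of 516 listed members 511 matched the reference, 10 of them by product name, and 5 were left out. Genes were named by rule: the 10 largest rises and falls with a symbol, a higher group averaging at least 100 and no overlap, the largest rise and fall of each list (mean of at least 50) with 3 members where over 50% of a list changed in 1 direction, the 5 largest differences in each direction, and 15 genes given always. The members and lists were chosen with earlier results of these data known. A change is called moved by 1 library where leaving it out shifted it by over 1.5-fold. Plots used matplotlib 3.10.9 (Python 3.11.15).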

Additional observations from a re-analysis of the deposited data

Results flagged for a closer look

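The results below were picked out because the change with heat at high light differed from that at growth light by the interaction test (limma, adjusted p under 0.05). It passed upward for 4443 genes and downward for 4484. The values are differences of the 2 heat changes on the log2 scale, positive where the change was higher at high light, and 1 per named gene. With library totals the median difference over all genes moved by -0.81. The sign of small positive differences, such as those of AOC1 and JAZ12, may thus depend on the scaling. Over the other settings, named genes were followed for the change at high light only, not for these differences.

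In heat shock and folding, the differences were 5.97 for Hsp70b, 6.38 for HSFA7B (listed at 0 in control, so its size depends on the added 1), 6.02 for BIP3, -1.89 for CPN60B and -1.06 for IRE1-1. Antenna genes gave 5.2 for LHCB1.1, 8.72 for LHCB1.4, 5.28 for LHCB2.2, 9.38 for LHCB2.3 and -1.29 for NPQ4. Photosystem subunits gave 3.94 for PSAD-2, 3.54 for PSBQ-2 and 3.04 for PSAH2. Among the light stress proteins the values were 1.72 for OHP, -4.45 for ELIP1 and -5.69 for ELIP2. For pigments they were 10.3 for PORA, 1.15 for NYE1, -3.36 for NYC1 and -1.4 for LUT5, with 7.72 for SEN1 and 3.08 for NAP in senescence. Carbon metabolism gave 1.45 for RCA and 1.38 for HPR, and oxygen scavenging gave -1.59 for APX1 and -2.38 for SAPX.

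Flavonoid enzymes gave -5.48 for CHS, -8.73 for TT7, -6.18 for UF3GT, -5.13 for 5MAT and -7.84 for UGT78D3. Their regulators gave -7.09 for PAP2 and -5.76 for MYB11, and PIF4 gave 2.7. Hormone genes gave -2.14 for LOX2, 0.72 for AOC1, -2.78 for AOC2, 0.62 for JAZ12, -10.1 for VSP1, -9.24 for VSP2, 2.97 for CYP707A3, -4.71 for CYP707A2 and 3.05 for ICS1. Stress signalling gave 5.86 for ZAT7 and -1.93 for RBOHD, and the clock gave 5.77 for RVE1 and -4.87 for ELF4.

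Sugar metabolism gave 5.27 for GOLS2, -11.5 for BAM5 and 8.05 for PGL1, and nitrogen metabolism gave 8.75 for ASN1. Cell division gave 2.97 for MCM7 and -1.26 for PCNA2. Water channels gave 2.34 for PIP1;5 and 2.38 for PIP3, cell walls 7.26 for EXPA8, -4.12 for EXPA4 and -11.21 for CSLA01, and lipids 1.48 for SSI2. RNA-related genes gave -2.26 for RS31A, 6.23 for PUM21 and -7.99 for TAS1A, and gibberellin turnover -6.39 for GA2OX8. Cell-type markers gave -2.59 for KAT1, -1.8 for GORK, -0.83 for FAMA, -3.83 for SWEET12, -1.56 for SULTR2;1 and 1.03 for CER5. As for HSFA7B, the size of a difference depends on the added 1 where a group lay near 0. Examples are CSLA01, at 0 to 0.844 in control, and PUM21 and SEN1, at 0 to 0.885 in high light. BAM5 was at 0.788 to 48.7 in control, and the heat libraries of CSLA01 had 158, 5.39 and 3.82.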

How the results depend on the processing

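Scaling mattered most. With library totals, 1964 genes were higher and 11758 lower at high light, and 1813 differences were positive and 8805 negative. The changes of AOC1 (-0.25), APL (-0.23), CER5 (-0.34), APX1 (-0.77) and JAZ10 (-0.37, not called in either) were then below 0, the calls of HPR, GLDP2, JAZ12, MCM7, EXPA8 and XCP1 were lost, AOS was called lower, and the other 102 of 114 named genes kept direction and call. That alternative places the gain of abundant transcripts on all other genes, while the deposited size factors leave the median gene near no change (-0.03). Which scaling is nearer to the RNA of the leaf was not tested. Upper-quartile scaling gave 4542 higher and 6680 lower, and AOC1, APL and CER5 lost their calls. Counting only absolute log2 changes of at least 1 gave 3361 higher and 3719 lower at high light and 2702 and 2919 at growth light, and an adjusted p under 0.01 gave 2837 positive and 2888 negative differences. edgeR called 5182 higher and 5832 lower and DESeq2 5800 and 5626. Leaving out 1 library gave 4681 to 5403 higher and 4854 to 5794 lower at high light, 3691 to 4832 positive and 3748 to 5141 negative differences, and 3784 to 5144 higher and 3816 to 4999 lower at growth light. With the replicate block, 5340 were higher and 5597 lower, and 4364 differences were positive and 4340 negative. Same-numbered libraries of the combination and high light correlated in their deviations at r = 0.004, -0.031 and -0.076, those of heat and control at 0.068, 0.001 and 0.007, of the combination and heat at -0.074, 0.046 and 0.034, and of high light and control at 0.159, 0.157 and 0.307. Only high light and control, between which no test was made alone, correlated best by number, a hint from the data, so the numbers were not taken as pairs. Both of these groups enter the difference of the heat changes. No named gene changed its call for the change at high light under the block. The differences of single named genes were not followed under it. Genes with few reads in high light, small heat shock proteins among them, have the least certain fold changes. Over all settings tried, the change at high light ranged from 12.77 to 16.48 for HSP21 and from 7.45 to 12.14 for PUM21. It ranged from 4.79 to 8.35 for FTSH6, from 3.36 to 7.54 for SEN1 and from 2.1 to 6.06 for PGL1.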

Other observations

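Families grouped by the stem of their symbol, with at least 15 tested members and picked out after their values were seen, held further changes with heat at high light. Of 30 CRK genes, cysteine-rich receptor-like kinases, 2 were higher and 20 lower in the combination, with a median of -1.3 on the log2 scale. Receptor-like proteins (RLP) were higher in 3 and lower in 21 of 36, beta-glucosidases (BGLU) in 1 and 13 of 19, and UMAMIT amino acid transporters in 2 and 15 of 31. Cytochromes P450 of the CYP stem were higher in 19 and lower in 54 of 115, with a median of -0.73. All of these medians were below 0 under each scaling tried.

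Families with more higher than lower members included B-box factors (BBX), with 10 higher and 3 lower of 16 and a median of 1.81, bZIP factors, with 13 and 3 of 20 and 1.19, and tau glutathione transferases (GSTU), with 10 and 3 of 19 and 1.24, and these medians stayed above 0 with library totals (0.92, 0.29 and 0.35). Autophagy genes (ATG) were higher in 11 and lower in 0 of 20 (median 0.83), and VPS genes of vacuolar sorting in 16 and 0 of 27 (0.56). With library totals the medians of both families were below 0, at -0.06 and -0.34, so their direction depends on the scaling.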
